A study of Rattus norvegicus with 8 samples.

Results

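Hspb1, Cryab and Hspa5 encode 3 stress chaperones, and their rows were taken from the deposited rat gene table by Ensembl identifier: ENSRNOG00000023546 (Hspb1), ENSRNOG00000010524 (Cryab) and ENSRNOG00000018294 (Hspa5). All 3 were present among the 32883 identifiers listed. The table itself gives no gene names, so the symbols are those that came with the choice of these identifiers, and they could not be checked against an annotation here. The study profiled RNA from spinal cord of outbred Sprague Dawley laboratory rats, and asked what an injury elsewhere in the cord does to the transcriptome of uncut cord. The injured group (4 libraries) was taken 4 days after hemisection at thoracic level 9, which severs the cord on 1 side only. The other group (4 libraries) came from rats without spinal cord injury. No genotype, transgene or drug is named for either group. The sources used here do not say whether uninjured rats had sham surgery, how old the rats were, or whether 1 library stands for 1 animal. The title of the series speaks of upper lumbar cord, whereas the sample labels speak of upper spinal cord.

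Chaperones bind unfolded proteins and keep them from aggregating. Hspb1 and Cryab (alpha B-crystallin) are small heat shock proteins, which hold unfolded proteins without using ATP and form large mixed oligomers. Both are transcribed under heat shock factors, both bind intermediate filaments, and Cryab is known in cord as an abundant protein of oligodendrocytes and of stressed astrocytes. Hspb1 is known to be induced in reactive astrocytes and in injured neurons. Hspa5 (BiP) is the ATP-driven Hsp70 chaperone of the endoplasmic reticulum (ER), and its induction is the classic readout of the unfolded protein response, in which proteins that fail to fold in the ER activate a set of ER genes. The 3 genes thus stand for separate branches of the stress response, the first 2 cytosolic and the last in the ER.

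The promoters of Hspb1 and Hspa5 are shown because they hold letter matches to motifs of these 2 branches. These are a heat shock element pair in Hspb1 and the ER stress response element in Hspa5. The sequences are the 250 bases before the gene start in RefSeq (build GRCr8), while the counts were made on another build, Rnor_6.0. Of the 3 members, 2 were matched in the promoter table and Cryab was not. In Hspb1 (chr12:26432302-26432551, minus strand) the capitals mark 2 matches to the heat shock element pair GAANNTTC. In Hspa5 (chr3:38452766-38453015, plus strand) they mark 1 match to the ER stress response element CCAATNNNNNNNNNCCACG. Both are written 5′ to 3′ on the strand of the gene.
Hspb1: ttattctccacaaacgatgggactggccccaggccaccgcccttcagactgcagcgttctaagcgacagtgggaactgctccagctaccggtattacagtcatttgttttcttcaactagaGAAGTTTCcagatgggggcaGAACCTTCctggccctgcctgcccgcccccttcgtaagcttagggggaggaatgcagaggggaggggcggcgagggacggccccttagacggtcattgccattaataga
Hspa5: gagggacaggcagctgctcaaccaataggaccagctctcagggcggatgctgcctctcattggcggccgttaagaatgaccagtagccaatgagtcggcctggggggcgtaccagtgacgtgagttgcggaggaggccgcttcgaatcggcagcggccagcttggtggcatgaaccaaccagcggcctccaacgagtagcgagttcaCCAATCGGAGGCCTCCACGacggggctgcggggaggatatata

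The Hspb1 matches, GAAGTTTC and GAACCTTC, lie 129 to 122 and 109 to 102 bases before the start, and the Hspa5 match, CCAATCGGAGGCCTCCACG, lies 43 to 25 bases before it. At least 1 GAANNTTC was found in 7.23% of the 33469 RefSeq promoter windows of this length, and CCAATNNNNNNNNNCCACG on either strand in 0.0657% of them. The other arrangement of the heat shock element, TTCNNGAA (7.48% of windows), was not among the letters of either window. GAANNTTC and TTCNNGAA read the same on both strands, and no matches overlap in the 2 windows. A match is a string of letters and does not show that a factor was bound in these cords.

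Hspb1 rose 3.76-fold after injury, Cryab was 1.36-fold higher in a difference that passed the test only when same-numbered libraries were compared with each other, and Hspa5 did not pass the test in either fit. Thus 1 of the 3 genes was called higher by the fit without pairing, where 2.28% of the 3073 genes tested were called higher (quasi-likelihood test of edgeR, p adjusted by Benjamini-Hochberg, threshold 0.05). With the library number from the titles (1 to 4 in each group) as a block, 2 of the 3 were called higher, against 6.77% of all genes tested. No label calls same-numbered libraries paired, and the pairing was read from these same counts. The call of Cryab was lost when both libraries of any 1 number were left out. Together the transcripts of the 3 genes made up 0.336% ± 0.0661 (SD, n = 4 injured libraries) of all unique molecular identifiers (UMIs, the random tags that count single transcripts) after injury, against 0.145% ± 0.0296 (SD, n = 4 uninjured libraries) without it. In bulk tissue, more RNA per cell and more cells of an expressing type cannot be told apart. Markers of cell types were not analysed here, since the identifiers could not be paired with names, so their part in these differences was not tested.

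Library totals ran from 112264 to 320199 UMIs, and 3 of the 4 injured libraries were deeper than every uninjured library. Levels are given as UMIs per 1000000 UMIs of the library (CPM), which scales each library to its total. The top count of a library was 3727 to 4047 throughout, although totals differed. Depth may therefore still enter CPM in part. With every library thinned to the smallest total, the edgeR log2 fold changes without pairing were 1.945 for Hspb1, 0.49 for Cryab and 0.10 for Hspa5. After a correction for tag collisions they were 1.995, 0.47 and 0.05. Only Hspb1 passed the test in each of these fits. The share of depth in the differences between groups was not tested beyond these fits. Each transcript is read at its 3' end, so a level does not scale with gene length. Intervals for single libraries are 95% Wilson intervals and cover counting error only. The highest count of any gene was 4047, just below the number of different tags that 6 bases allow, while the highest count of the 3 genes was 697.

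Hspb1 was counted with 112, 62, 47 and 89 UMIs in uninjured libraries 1 to 4, and with 697, 590, 376 and 509 UMIs in injured libraries 1 to 4. This made 506, 552, 349 and 654 CPM in uninjured cord and 2554, 1843, 1482 and 2609 CPM in injured cord. Every injured library lay above every uninjured library, and the gap was wide: the lowest injured value, 1482 CPM in library 3 (interval 1340 to 1640), was more than double the highest uninjured value, 654 CPM in library 4 (interval 532 to 805). Groups that did not overlap, with injured higher by a gap of any width, were seen for 7.52% of all genes tested. Mean levels were 2122 ± 551 CPM (SD, n = 4) after injury and 516 ± 127 CPM (SD, n = 4) without injury. The fitted log2 fold change was 1.91 (SE 0.26, 95% interval 1.37 to 2.45, edgeR adjusted p = 0.000508), the 20th largest rise of the genes tested. Only 6 genes had a smaller p. Over all genes tested, the median log2 fold change was -0.03. Scaling by library totals in place of the trimmed mean of M values (TMM) moved this median to 0.09 and that of Hspb1 to 2.04.

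**Figure D1:**
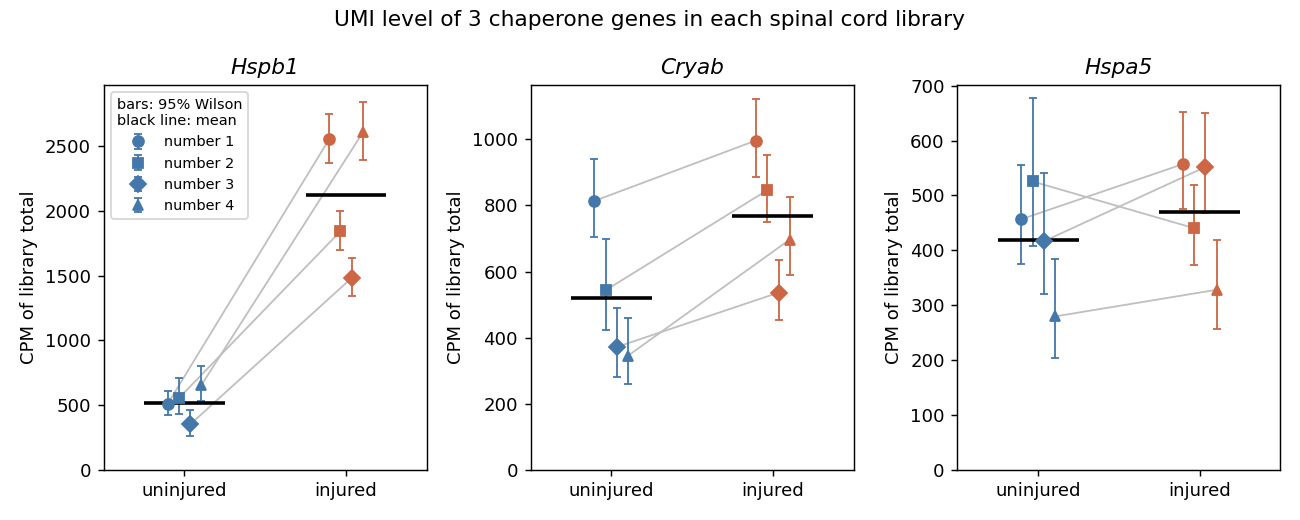
Level of each gene in each library, in CPM of the library total on the vertical axis, with uninjured (blue) and injured (orange) libraries side by side, marker shapes and grey lines for the number shared in the titles, bars for 95% Wilson intervals and black lines for group means. The Hspb1 groups are apart, with uninjured libraries between 349 and 654 CPM and injured libraries between 1482 and 2609 CPM, whereas the groups of Cryab and Hspa5 overlap.

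Libraries 1 to 4 of each group carry the same numbers in their titles, and same-numbered libraries deviated together over all genes. Within numbers 1, 2, 3 and 4, Hspb1 was 5.04-fold, 3.34-fold, 4.24-fold and 3.99-fold higher in the injured library. The rise was thus of similar size in all 4 pairs. In both groups library 4 had the highest and library 3 the lowest Hspb1 level.

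Cryab, the other small heat shock protein, was counted with 180, 61, 50 and 47 UMIs in uninjured libraries 1 to 4 and with 272, 271, 136 and 136 UMIs in injured libraries 1 to 4. Its levels were 814, 543, 372 and 346 CPM in uninjured cord and 997, 846, 536 and 697 CPM in injured cord. The groups overlapped: uninjured library 1, at 814 CPM (interval 703 to 942), lay above injured libraries 3 and 4. Mean levels were 769 ± 198 CPM (SD, n = 4) after injury and 519 ± 216 CPM (SD, n = 4) without injury. Without pairing, the log2 fold change was 0.45 (SE 0.25, 95% interval -0.09 to 0.98, edgeR adjusted p = 0.467), which did not pass the test. That interval reaches from 0.939-fold to 1.98-fold, so a near-doubling lies within it.

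Inside each number the injured library had more Cryab, by 1.22-fold, 1.56-fold, 1.44-fold and 2.02-fold for numbers 1 to 4. A higher level in the injured library of all 4 pairs was seen for 20.7% of all genes tested, and for Hspb1 as well as Cryab among the 3 genes. Number 1 had the highest and number 2 the next highest Cryab level in both groups. With the number as a block the log2 fold change was 0.47 (SE 0.14, 95% interval 0.17 to 0.77, edgeR adjusted p = 0.0357), which passed. The size of the change was nearly the same in both fits and its error was smaller with the block. Leaving out both libraries of any 1 number, a check added after seeing the data, gave log2 fold changes of 0.36 to 0.57 with adjusted p from 0.0636 to 0.13 (edgeR with the block), so that none of these 4 smaller fits passed. Gene models of Cryab and Hspb2, another small heat shock protein gene, overlap in RefSeq (GRCr8). The sources used here do not give the strand setting of the counting, so reads from the shared stretch cannot be told apart.

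**Figure D2:**
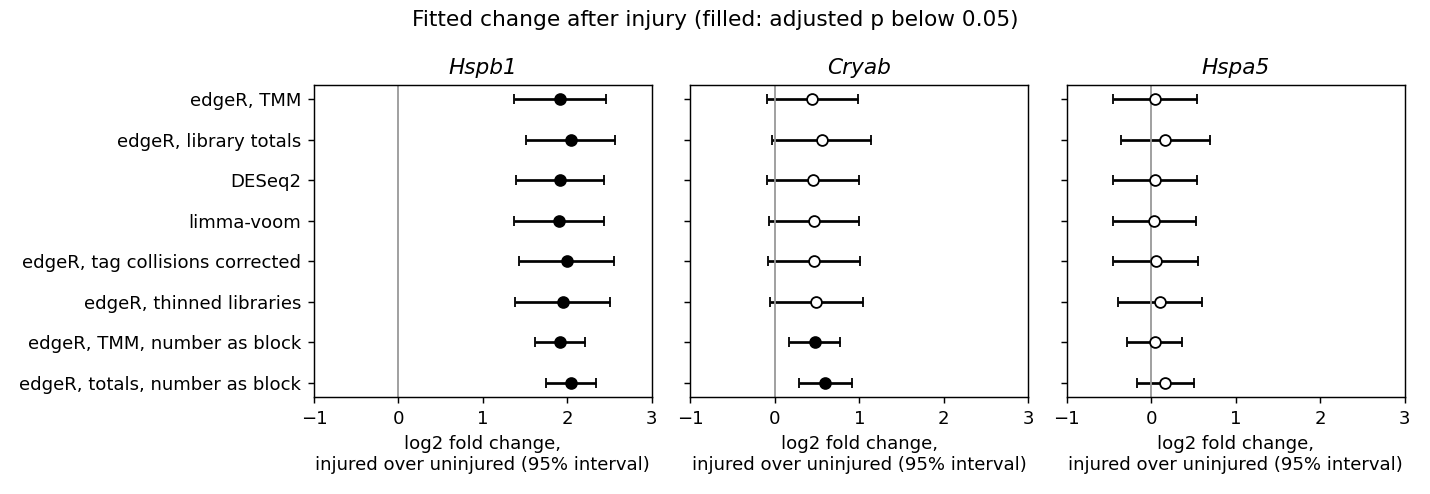
Fitted log2 fold change of each gene, injured over uninjured, on the horizontal axis with its 95% interval, for 8 fits named on the left; filled circles have an adjusted p below 0.05. Hspb1 is filled in every fit shown, Cryab only in the 2 fits with the number as a block, and Hspa5 in none.

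Hspa5, the ER chaperone, was counted with 101, 59, 56 and 38 UMIs in uninjured libraries 1 to 4 and with 152, 141, 140 and 64 UMIs in injured libraries 1 to 4. Its levels were 457, 526, 416 and 279 CPM in uninjured cord and 557, 440, 552 and 328 CPM in injured cord. The groups overlapped almost fully, with library 4 the lowest of each group. Mean levels were 469 ± 109 CPM (SD, n = 4) after injury and 420 ± 104 CPM (SD, n = 4) without injury. The log2 fold change was 0.04 (SE 0.23, 95% interval -0.45 to 0.54, edgeR adjusted p = 0.959), and with the number as a block its interval narrowed to -0.29 to 0.36 (edgeR adjusted p = 0.911). Fold changes outside 0.82 to 1.29 thus lie outside this blocked interval, while smaller ones in either direction were not detectable at this spread between libraries. Other fits allowed a larger rise. The interval was 0.73-fold to 1.45-fold without the block, and -0.16 to 0.50 in log2 with the block and library totals. The injured library was higher in 3 of 4 pairs, and number 2 went the other way at 0.838-fold. The sign of the small fitted difference turned when uninjured library 4, injured library 1 or injured library 3 was left out (log2 fold changes of -0.08, -0.03 and -0.06).

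**Figure D3:**
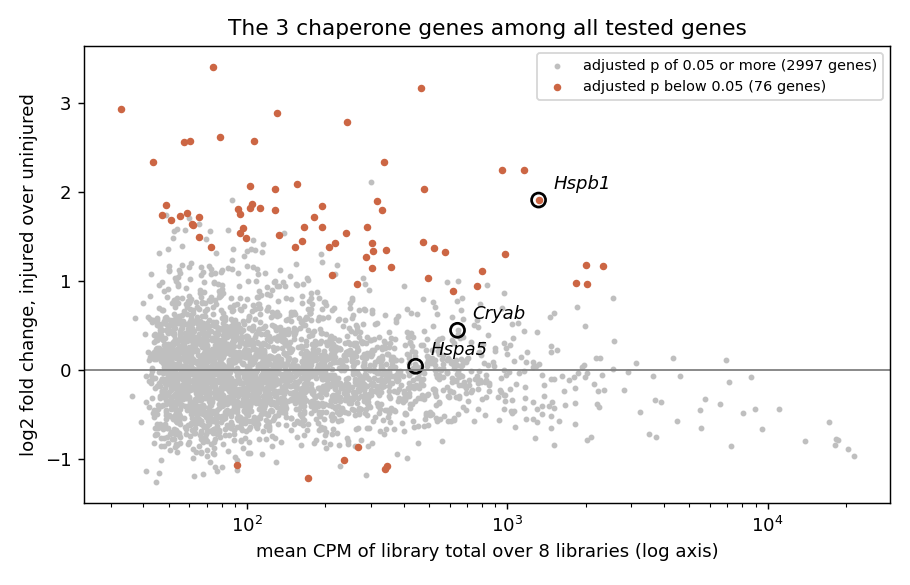
Log2 fold change, injured over uninjured (vertical axis), against mean level over the 8 libraries in CPM (horizontal log axis) for the 3073 genes tested, with the 76 genes past the test in orange and the 3 chaperone genes circled. Hspb1 lies among the orange points at 1.91, while Cryab at 0.45 and Hspa5 at 0.04 lie in the grey cloud.

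All 3 genes varied between libraries of a group by more than counting error. The coefficient of variation of Hspb1 was 26.0% in injured and 24.6% in uninjured cord, where counting alone gives about 4.37% and 11.8%. For Cryab it was 25.7% in injured and 41.5% in uninjured cord, against 7.32% and 12.2% from counting, and its spread in uninjured cord was the widest of the 3 genes in that group. Hspa5 varied by 23.1% in injured and 24.7% in uninjured cord, against 9.37% and 13.1%. Counting error was thus the smaller part of the spread of each gene in both groups.

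To ask whether the members changed by different amounts, the counts of 2 genes were set against each other inside each library, which cancels library scaling. It does not cancel tag collisions, which depend on the count. After a correction for them, the log2 difference between groups moved from 1.42 to 1.48 for Hspb1 over Cryab. For Hspb1 over Hspa5 it moved from 1.87 to 1.94. Hspb1 and Cryab were counted about equally in uninjured cord, with ratios of 0.623, 1.02, 0.941 and 1.88 in libraries 1 to 4, and Hspb1 outnumbered Cryab in injured cord, with ratios of 2.56, 2.17, 2.76 and 3.73. The groups did not overlap, and the ratio was 2.67-fold higher after injury (log2 ratio 1.46 ± 0.33 against 0.04 ± 0.66, SD, n = 4, two-sided exact permutation p = 0.0286, adjusted over the 3 ratios 0.0429). This p is the smallest that 4 libraries against 4 allow.

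Hspb1 over Hspa5 was 1.11, 1.05, 0.841 and 2.32 in uninjured libraries 1 to 4 and 4.57, 4.17, 2.68 and 7.90 in injured libraries 1 to 4. Again the groups did not overlap, and the ratio was 3.65-fold higher after injury (log2 ratio 2.17 ± 0.64 against 0.30 ± 0.64, SD, n = 4, two-sided exact permutation p = 0.0286, adjusted 0.0429). Library 4 had the highest ratio in each group, and the difference within numbers ran only from 1.67 to 2.05 in log2.

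Cryab over Hspa5 was 1.78, 1.03, 0.894 and 1.23 in uninjured libraries 1 to 4 and 1.79, 1.92, 0.972 and 2.12 in injured libraries 1 to 4. The groups overlapped, and the 1.37-fold difference did not pass (log2 ratio 0.70 ± 0.51 against 0.25 ± 0.43, SD, n = 4, two-sided exact permutation p = 0.229, adjusted 0.229). The injured library was higher in 4 of 4 pairs, by as little as 0.01 in log2 in number 1 and as much as 0.89 in number 2. Both ratios with Hspb1 were thus higher after injury by the test that ignores the numbers, and a difference between Cryab and Hspa5 was not shown. Within numbers, both ratios with Hspb1 were higher in the injured library of 4 of 4 pairs, but the two-sided exact paired permutation test gave p = 0.125, the smallest that 4 pairs allow, and so did not pass.

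**Figure D4:**
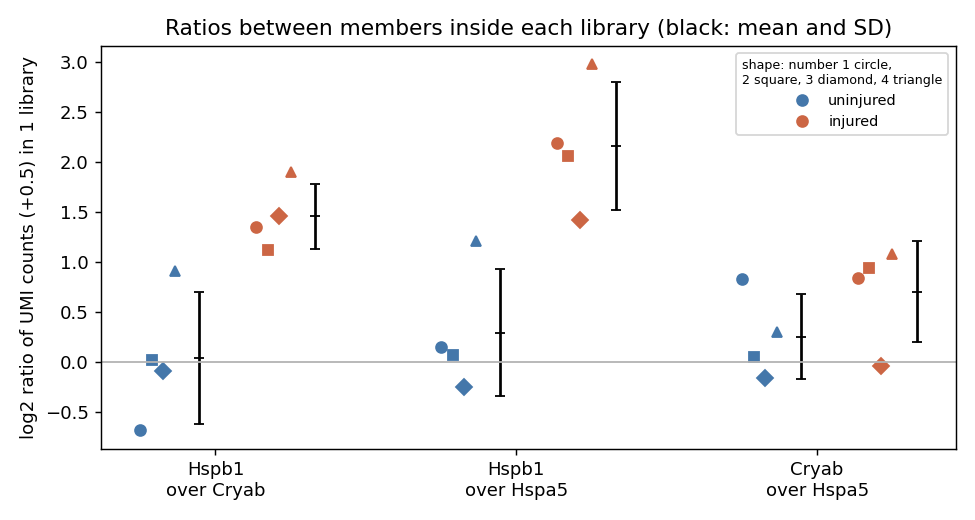
Log2 ratio of the UMI counts of 2 genes inside each library (vertical axis, 0.5 added to each count) for the 3 pairs of genes, uninjured in blue and injured in orange, with marker shapes for the numbers and black bars for the mean and SD of each group. Both ratios with Hspb1 on top are higher in all injured than in all uninjured libraries, while the ratio of Cryab to Hspa5 overlaps.

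Each gene was also compared with the 1715 other genes that were tested and had a mean count of at least 20, by the root mean square difference of their log2 CPM over the 8 libraries after centring each gene on its own mean. Nearest to Hspb1 was ENSRNOG00000017869, at a difference of 0.32 where the median gene was at 1.08. That gene ran from 420 to 572 CPM in injured and from 89.2 to 184 CPM in uninjured cord. Since it was picked for its likeness over these same libraries, its difference between groups is a description only. Cryab stood only at place 200 in nearness to Hspb1, at 0.83, and Hspa5 at place 845, at 1.08, which is the distance of the median gene. Nearest to Cryab was ENSRNOG00000014647, at 0.16 against a median of 0.56, and nearest to Hspa5 was ENSRNOG00000009161, at 0.10 against a median of 0.46. These 3 identifiers were not paired with names.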

How the data were processed

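Libraries of frozen cord were made by CEL-Seq2, which reads 3' ends, per the labels' protocols. The authors deposited raw UMI counts per Ensembl gene. The tools were HISAT2 2.0.4 and HTSeq 0.6.0 on build Rnor_6.0, per the submitters' processing notes. Annotation release, tag length, tag collapsing, strand setting and read filters were not given in the sources used here.

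Each column was assigned by the code it shares with a sample title. The counts went through edgeR 4.0.16 (R 4.3.3): filterByExpr (minimum count 10, minimum total 15), TMM scaling and a test with glmQLFit (legacy off) and glmQLFTest over all 8 libraries, which was checked on simulated data. Standard errors are the fitted change over the root of F. Nothing says that libraries came from separate animals, so p-values measure the spread between libraries, which may be technical. Same-numbered libraries were taken as pairs because their deviations from group means correlated at 0.389, 0.297, 0.342 and 0.423 over the genes tested, each over 0.1, although no label calls them paired. Libraries of different numbers correlated at -0.311 to 0.241, the highest being injured 2 with uninjured 1. That value and the 0.153 of injured 1 with uninjured 2 were also over 0.1. The pairing was thus read from the same counts that the block was fitted to, which limits what the p-values with the block can show. Alternatives used DESeq2 1.42.0 and limma 3.58.1, and permutation tests SciPy 1.17.1.

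The genes named were the 3 members and the nearest gene to each by pattern. Members and lists were chosen with earlier results of these data known. Of the deposited identifiers, 0 matched the RefSeq table of GRCr8, so the 12 lists of chaperones, ER stress genes and cell type markers were not analysed here.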

Additional observations from a re-analysis of the deposited data

How the results depend on the processing

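Hspb1 kept its rise in all 22 alternatives, with log2 fold changes of 1.76 to 2.09 (edgeR, DESeq2 or limma adjusted p up to 0.0085). Cryab stayed higher in all 22 and passed only in 3, all with the replicate block: 0.47 with TMM, 0.60 with library totals and 0.49, added after seeing the data, after a correction for tag collisions; without 1 library it was 0.32 to 0.69. Hspa5 passed in 0 of 22 (edgeR, DESeq2 and limma, adjusted p from 0.58 to 0.994), and its log2 fold change was -0.0841 to 0.15 without 1 library (below 0 without uninjured 4, injured 1 or injured 3) and -0.0341 and -0.0287 with the block and without number 1 or 3. The block changed no other call of the 3 genes. The 76 genes called became 238 without a filter on low counts, 348 with the replicate block, 349 with the block and library totals and 329 with the block after the collision correction. They were 42 to 128 without 1 library, and 142, 249, 207 and 520 with the block and without number 1, 2, 3 or 4; the cause was not tested. In a paired permutation the ratio differences of 1.42 (Hspb1 over Cryab) and 1.87 (Hspb1 over Hspa5) had p = 0.125, the smallest that 4 pairs allow. Without 1 library they were 1.18 to 1.71 and 1.60 to 2.17, where 0.0571 is the smallest exact permutation p. Thinning every library to the smallest total moved the SE of Hspa5 from 0.234 to 0.236 in log2, of Hspb1 from 0.257 to 0.266 and of Cryab from 0.253 to 0.261.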
